A study of Mus musculus with 12 samples.

Results

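The 10 genes described here are 9 genes of the imprinted Prader-Willi region of mouse chromosome 7, which are *Ndn*, *Magel2*, *Mkrn3*, *Peg12*, *Snrpn*, *Snhg14*, *Ipw*, *A230057D06Rik* and *Ube3a*, and *Gm5802*, a processed pseudogene on chromosome 14 that is a copy of *Snrpn* messenger RNA. They were picked by name from the 27179 genes of the count table after several of them had been seen to differ between the genotypes of these same mice. Their genotype differences are therefore given as a description, and calls for genotype among them support nothing. Of the 10 genes, 9 passed a filter on low counts (at least 0.2 CPM, which are counts scaled to library size, in at least 2 mice), and *Peg12* did not.

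Hippocampal RNA was sequenced from 12 mice at the age of 3 months. The mice formed 4 groups of 3: female WT, male WT, female *Nell-1+/6R* and male *Nell-1+/6R*. *Nell1* encodes a secreted protein of bone and brain development, and 6R is a loss-of-function allele of it made with the mutagen ENU. It was studied in heterozygotes, which keep 1 intact copy in every cell, because mice with no intact copy die at birth, and the WT mice were littermates. The sources used here do not give the parent that passed on 6R.

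Total counts ranged from 10834905 to 16016317 per mouse. *Nell1* itself was at 30.6 to 44.0 CPM in the 6 WT mice and at 17.2 to 20.8 CPM in the 6 *Nell-1+/6R* mice, so every mouse fitted its genotype label (log2 fold change -0.93, SE 0.0803, edgeR adjusted p = 1.5e-04). Defining markers of hippocampal principal neurons were abundant in each library, summing to 2949 to 3276 CPM (WT) and 2911 to 3781 CPM (*Nell-1+/6R*). *Nell1* ends 8.37 to 11.6 Mb before the 9 genes on the same chromosome.

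In an imprinted gene only the copy from one parent is active. In this region the copy from the father is read for *Snrpn*, *Ndn*, *Magel2*, *Mkrn3*, *Peg12*, *Ipw* and *Snhg14*, while *Ube3a* is read in neurons from the copy of the mother, with *Snhg14* running across it in antisense. Loss of the paternal copies in humans causes Prader-Willi syndrome, with weak muscle tone in infancy and later overeating, and loss of maternal *UBE3A* causes Angelman syndrome. *Ndn* and *Magel2* encode proteins of the MAGE family, necdin holding back growth of postmitotic neurons and Magel2 working with ubiquitin ligases in protein recycling. *Snrpn* encodes SmN, a core protein of the spliceosome that takes the place of SmB in neurons, *Mkrn3* a makorin ring finger protein that restrains puberty, and *Peg12* a Frat protein of the Wnt pathway. *Ube3a* encodes a ubiquitin ligase. *Snhg14*, *Ipw* and *A230057D06Rik* give long noncoding RNAs.

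*Gm5802* (chr14:62540396-62541287 in the RefSeq annotation of GRCm38, Entrez ID 545062) and *Snrpn* (chr7:59982495-60450177, Entrez ID 20646) are shown first because the copy is nearly identical to a part of *Snrpn* messenger RNA, while 65 of 2106 stretches of 50 bases in *Snrpn* (3.09%) occur unchanged in the copy. The GENCODE M21 transcript of *Gm5802* has 701 bases on the minus strand, and 692 of them align to *Snrpn* messenger RNA with 667 identical and 25 mismatched, an identity of 96.4%. The aligned part runs across 6 exon junctions of *Snrpn* with none of the introns between them. Its identity to *Snrpb*, the gene of SmB, was 78.6%. The longest identical run is 91 bases. It is printed below with its flanks, 5′ to 3′, and capitals mark the bases in which the gene and its copy differ.
Gm5802 (chr14:62540554-62540656, minus strand): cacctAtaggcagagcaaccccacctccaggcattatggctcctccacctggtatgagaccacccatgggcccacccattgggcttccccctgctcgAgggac
Snrpn (2 coding exons within chr7:59983422-59985054, minus strand): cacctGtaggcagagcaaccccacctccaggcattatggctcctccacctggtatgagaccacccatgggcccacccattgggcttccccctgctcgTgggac

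The copy also carries 2 insertions of 8 bases in all, the longer of 7 bases. The stretch around them is the place where a read tells the copy from its parent gene best, and capitals again mark inserted or differing bases.
Gm5802 (chr14:62540818-62540892, minus strand): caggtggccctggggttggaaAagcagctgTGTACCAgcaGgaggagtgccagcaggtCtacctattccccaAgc
Snrpn (chr7:59985883-59985949, 1 coding exon, minus strand): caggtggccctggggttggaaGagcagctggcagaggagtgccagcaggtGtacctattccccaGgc

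The reads of the study were 50 bases long. Of the 652 stretches of 50 bases in *Gm5802*, 65 (9.97%) occur unchanged in *Snrpn* transcripts and 473 (72.5%) differ from the best place in *Snrpn* by at most 2 mismatches. Within this transcript, stretches with more than 4 mismatches lie only around the insertions. The RefSeq gene of 892 bases, on which the counts rest, reaches beyond the transcript at both ends, and those ends were not compared. In the other direction, 559 of 2106 stretches of *Snrpn* (26.5%) also lie in other GENCODE genes, 446 of them in *Gm38393* and 167 in *Snurf*, which overlap it on the same strand. In RefSeq, whose Entrez IDs the counts use, the gene *Snurf* (chr7:59982495-60005199) spans the coding exons of *Snrpn*, and *Snurf* was counted 0 times in all 12 mice. How the counting treated reads that lie on more than one gene or place was not stated in the sources used, which leaves it uncertain for *Snrpn* and *Gm5802* from which of the copies the counted reads came. No stretch of *Ndn*, *Magel2*, *Mkrn3* or *Peg12* was found in another gene.

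**Figure D1:**
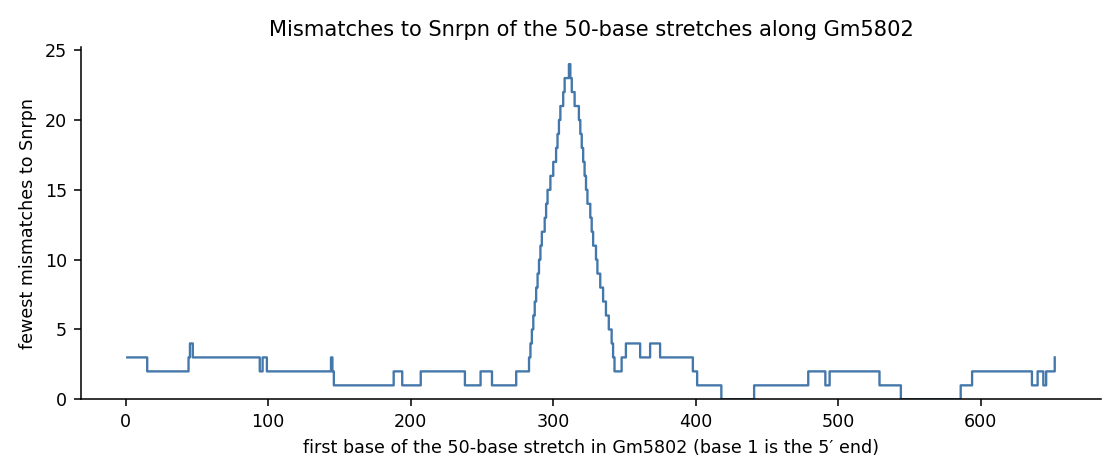
Fewest mismatches, without gaps, between each 50-base stretch of the *Gm5802* transcript (x axis, position of its first base) and *Snrpn* transcripts (y axis, number of bases). The line stays at or near 0 to 4 along most of the transcript, reaches 0 in 65 stretches, and rises only where stretches run across the insertions.

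*Ndn* (chr7:62348277-62349928, 1 exon, Entrez ID 17984) was the most abundant of the 10 genes and was higher in *Nell-1+/6R* mice. The 6 WT mice had a lowest value of 74.3 CPM, a median of 99.8 CPM and a highest value of 115.3 CPM. The 6 *Nell-1+/6R* mice ran from 152.3 CPM through a median of 171.8 CPM to 182.0 CPM. The genotypes did not overlap, and the means were 98.7 ± 13.5 and 170.3 ± 11.8 CPM (SD, n = 6 each), a ratio of 1.72. The fitted log2 fold change was 0.79 (SE 0.0873). The male WT mouse at 74.3 CPM lay below the rest of its genotype, and without it the log2 fold change was 0.72.

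*Gm5802* had the tightest values. WT mice ran from 33.7 CPM through a median of 35.4 CPM to 38.2 CPM, and *Nell-1+/6R* mice from 65.9 CPM through a median of 70.0 CPM to 79.0 CPM. The lowest *Nell-1+/6R* mouse was well above the highest WT mouse. The means were 35.8 ± 1.83 and 70.8 ± 4.85 CPM (SD, n = 6 each), and the log2 fold change was 0.98 (SE 0.0579). The ratio was 2.01 in females and 1.94 in males.

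*Snrpn* was counted rarely, 8 to 21 times in a WT mouse and 34 to 57 times in a *Nell-1+/6R* mouse. Its level ran from 0.672 CPM through a median of 1.12 CPM to 1.85 CPM in WT mice, and from 2.69 CPM through 3.06 CPM to 4.64 CPM in *Nell-1+/6R* mice. The genotypes did not overlap here either. The log2 fold change of 1.53 (SE 0.249) is the largest rise of the 9 genes fitted, on the fewest counts of those whose genotypes were separate. As a share of the counts of *Snrpn* and *Gm5802* together, *Snrpn* took 1.73% to 5.20% in WT mice and 3.77% to 5.55% in *Nell-1+/6R* mice, and these shares overlapped. The sum of both genes was 404 to 636 counts in WT and 901 to 1027 counts in *Nell-1+/6R* mice. *Snurf* spans the coding exons of *Snrpn*, and how reads that lie on both were counted was not stated. The counts and shares of *Snrpn* may therefore leave out part of its RNA.

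**Figure D2:**
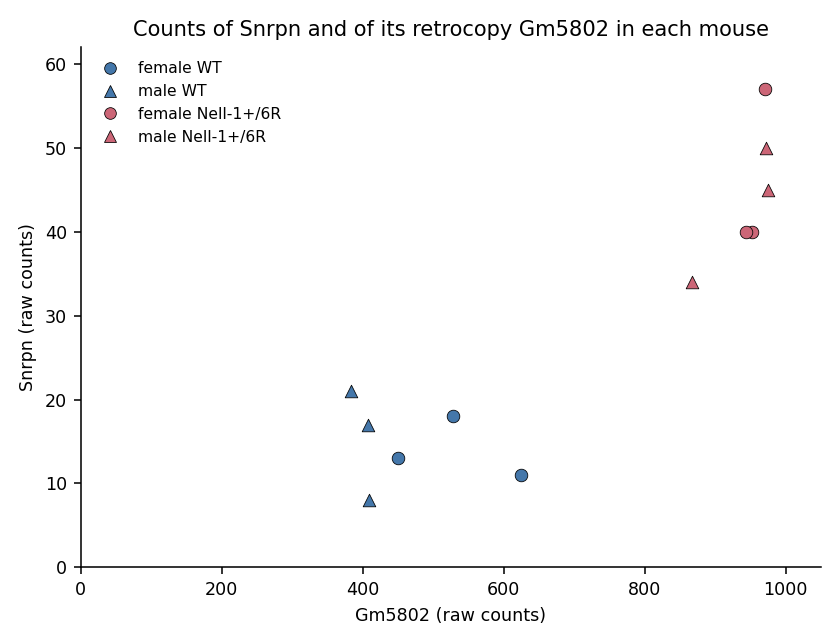
Raw counts of *Snrpn* (y axis) against raw counts of *Gm5802* (x axis), 1 point per mouse, circles for females and triangles for males. WT mice (blue) lie at 383 to 625 *Gm5802* counts and 8 to 21 *Snrpn* counts, *Nell-1+/6R* mice (red) at 867 to 974 and 34 to 57.

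*Ipw* (chr7:59619158-59678878, Entrez ID 16353), a noncoding RNA made between *Ube3a* and *Snrpn*, was lower in *Nell-1+/6R* mice. WT mice ran from 3.64 CPM through a median of 4.73 CPM to 6.29 CPM and *Nell-1+/6R* mice from 1.15 CPM through a median of 1.41 CPM to 1.96 CPM. The genotypes did not overlap, and the mean level was 0.302 of that in WT (log2 fold change -1.71, SE 0.173). These levels rest on 43 to 103 counts per WT mouse and 15 to 29 per *Nell-1+/6R* mouse. *Ipw* lies within the span of *Snhg14*. It was not among the GENCODE transcripts, so sequence that it shares with other genes was not examined.

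*A230057D06Rik* (chr7:61705850-61927574, Entrez ID 319893), a noncoding RNA gene of 221.7 kb between *Snrpn* and *Ndn*, went the same way. WT mice ran from 4.02 CPM through a median of 4.75 CPM to 6.09 CPM, *Nell-1+/6R* mice from 1.63 CPM through a median of 2.14 CPM to 2.77 CPM. There was no overlap, and the log2 fold change was -1.16 (SE 0.17).

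The other MAGE gene, *Magel2* (chr7:62376979-62381640, 1 exon), overlapped between genotypes, although it starts 28.7 kb from *Ndn*. WT mice ran from 0.927 CPM through a median of 1.40 CPM to 1.96 CPM, *Nell-1+/6R* mice from 1.06 CPM through a median of 1.90 CPM to 4.55 CPM. The log2 fold change was 0.54 (SE 0.319), and 0.26 without male *Nell-1+/6R* replicate 2, the mouse at 4.55 CPM, which was 62 counts.

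*Mkrn3* (chr7:62417593-62420153, 1 exon) had 3 to 14 counts per mouse. WT mice ran from 0.478 to 0.927 CPM and *Nell-1+/6R* mice from 0.220 to 0.744 CPM, largely over the same range, with a log2 fold change of -0.43 (SE 0.302). *Peg12* (chr7:62461871-62464510, 1 exon) was counted 0 to 3 times per mouse, 7 times over the WT mice and 10 times over the *Nell-1+/6R* mice, and no difference was detectable at this depth.

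*Ube3a* (chr7:59228750-59310837, Entrez ID 22215) ran from 27.3 CPM through a median of 38.7 CPM to 42.4 CPM in WT and from 28.9 CPM through a median of 36.5 CPM to 49.6 CPM in *Nell-1+/6R* mice. The ranges were much alike, and the log2 fold change was 0.02 (SE 0.12). Its antisense partner *Snhg14* (chr7:59272737-60450177, Entrez ID 52480), which shares its start with the longest *Snrpn* transcript, ran from 1.54 to 6.89 CPM in WT and from 2.22 to 8.16 CPM in *Nell-1+/6R* mice. It varied more than 3-fold within each genotype, and its log2 fold change was 0.02 (SE 0.361). With single mice left out, the *Snhg14* value lay between -0.20 and 0.26 and the *Ube3a* value between -0.06 and 0.09.

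**Figure D3:**
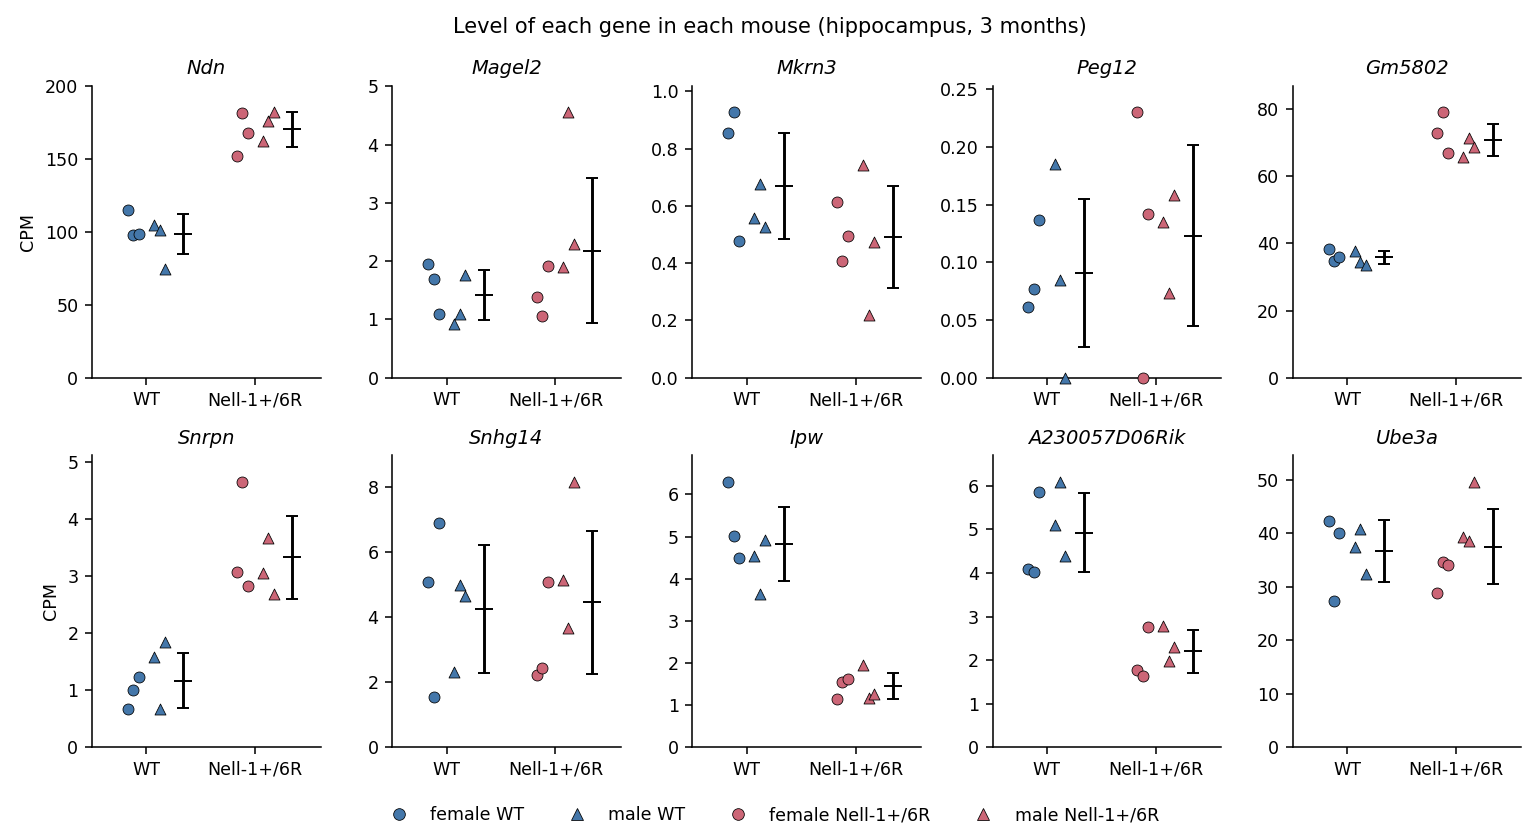
Level of each of the 10 genes (y axes, CPM, each from 0) in each of the 12 mice, WT in blue and *Nell-1+/6R* in red, circles for females and triangles for males. Black bars give the mean and SD of 6 mice, and the genotypes are apart for *Ndn*, *Gm5802*, *Snrpn*, *Ipw* and *A230057D06Rik* only.

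Of the 9 genes fitted, 4 (*Gm5802*, *Ipw*, *Ndn* and *A230057D06Rik*) had an edgeR adjusted p under 0.05 for genotype, where 0.0390% of all 17937 genes tested had one. *A230057D06Rik* had one in 3 of the 12 fits that leave out a mouse. *Snrpn* was at 0.056 in this edgeR fit, and across other settings fell on either side, from 5e-05 with DESeq2 to 0.2 with a replicate block and 0.224 without female WT replicate 2. The genotypes did not overlap in 5 of the 9, against 0.151% of all genes tested. These counts describe the values by which the genes had been picked, and nothing is read from them. In bulk tissue, fewer cells that express a gene and less RNA per cell cannot be told apart.

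Levels were compared between genes per length, as CPM per kilobase of the single exon, for the genes that have one. In WT mice *Ndn* had 59.7 ± 8.17 CPM per kb and *Gm5802* 40.2 ± 2.05 CPM per kb (SD, n = 6 each). *Magel2* had 0.305 ± 0.0926 CPM per kb, *Mkrn3* 0.262 ± 0.0721 CPM per kb and *Peg12* 0.0344 ± 0.0242 CPM per kb. The ranges over the 6 WT mice were apart for *Ndn* and *Gm5802* (45.0 to 69.8 and 37.7 to 42.8 CPM per kb) and overlapped for *Magel2* and *Mkrn3*. For *Gm5802* the length is that of the RefSeq gene, 892 bases, and from which copy its reads came is uncertain, as given above. *Ndn* was the only one of the 4 single-exon genes of the cluster to exceed 1 CPM per kb, and it did so in all 12 mice.

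Sex and its interaction with genotype played no part in how the genes were picked, so both were tested. For sex, 0 of the 9 genes had an adjusted p under 0.05 with edgeR, DESeq2 or limma-voom, where 0.0335% of all genes tested had one with edgeR, and 0 of the 9 had an unadjusted p under 0.05, against 4.72% of all genes. DESeq2 gave *Mkrn3* no adjusted p for sex. The log2 differences, male minus female, lay between -0.22 for *Mkrn3* (SE 0.303) and 0.38 for *Magel2* (SE 0.319). *Gm5802*, the gene with the smallest error, differed by -0.07 (SE 0.0575).

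For the interaction, 0 of the 9 genes and 0.00% of all genes had an adjusted p under 0.05 with edgeR, and DESeq2 and limma-voom likewise called 0 of the 9. At an unadjusted p under 0.05 there was 1 of the 9, *Magel2*, against 3.09% of all genes. In females *Magel2* averaged 1.58 ± 0.444 CPM with WT and 1.45 ± 0.430 CPM with *Nell-1+/6R* genotype (SD, n = 3 each). In males these means were 1.26 ± 0.438 and 2.91 ± 1.43 CPM (SD, n = 3 each). The genotype effect in males exceeded that in females by 1.32 on the log2 scale (SE 0.553, edgeR adjusted p = 0.987), and by 0.85 without male *Nell-1+/6R* replicate 2. The interaction was -0.05 (SE 0.12) for *Gm5802*, 0.21 (SE 0.171) for *Ndn*, 0.31 (SE 0.35) for *Ipw* and 0.03 (SE 0.349) for *A230057D06Rik*. It was -0.65 (SE 0.487) for *Snrpn*, whose ratio of means, *Nell-1+/6R* over WT, was 3.63 in females and 2.30 in males. That each of these 5 genes had the same direction in both sexes follows from their genotypes not overlapping, and is no separate result. For the remaining genes fitted, the interaction was 0.96 (SE 0.691) for *Snhg14*, 0.38 (SE 0.23) for *Ube3a* and 0.29 (SE 0.63) for *Mkrn3*. The ratio of means was 0.72 in females and 1.42 in males for *Snhg14*, and 0.89 and 1.15 for *Ube3a*.

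Whether the genes varied together from mouse to mouse was asked within the 4 groups, after removing each group's mean of log2 CPM, for 6 pairs. *Ube3a* and *Snhg14* varied together (Pearson r = 0.74, permutation p = 0.00582, adjusted over the 6 pairs 0.0349; Spearman rho = 0.71, permutation p = 0.0133, adjusted 0.0799; 12 mice). Without the 2 mice farthest from the median of *Ube3a*, r was 0.71. The relation leaned on female WT replicate 2, the mouse lowest in both genes, without which r was 0.45 and the adjusted p was 0.782. The adjusted permutation p of Pearson's r was above 0.05 in 7 of the 12 sets that leave out a mouse, from 0.0671 upward. *Ube3a* and *Snhg14* overlap on opposite strands in 1803 exonic bases, 8.74% of those of *Ube3a*. The strand setting of the counting was not stated in the sources used, so part of their counts may not be separable.

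The other 5 pairs had adjusted permutation p of 0.690 to 0.804. *Snrpn* and *Gm5802*, which are apart so clearly between genotypes, gave r = 0.24 and rho = 0.15 within groups, and r = 0.42 without the 2 farthest mice. *Snrpn* and *Snhg14*, which share a start, gave r = -0.31 and rho = -0.31, and r = -0.37 without the 2 farthest mice. *Ndn* and *Magel2* gave r = -0.24 and rho = -0.13, and r = 0.17 without the 2 farthest mice. *Ipw* gave r = 0.09 and rho = 0.17 with *Snhg14* and r = 0.08 and rho = 0.08 with *A230057D06Rik*, and these became 0.05 and -0.21 without the 2 farthest mice. Since 4 group means were removed from 12 values, the deviations are not fully independent and these permutation p are somewhat small.

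**Figure D4:**
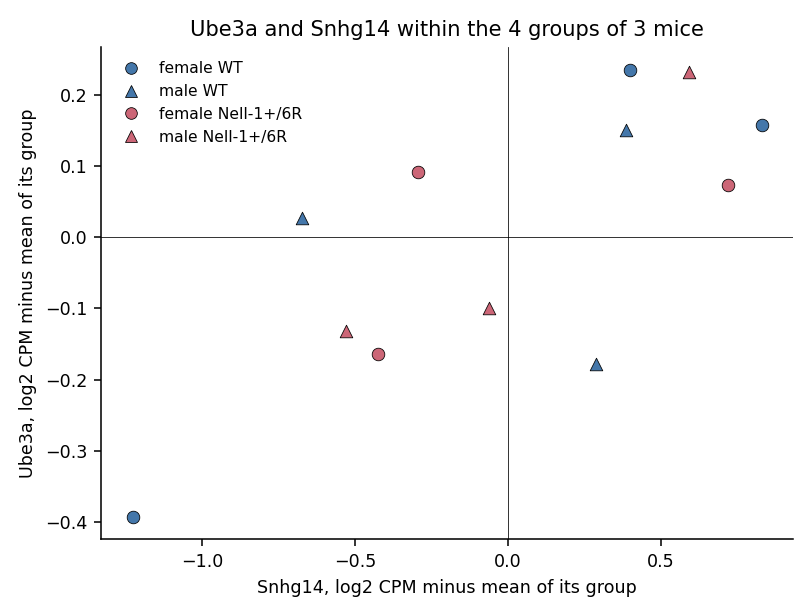
Deviation of *Ube3a* (y axis) against that of *Snhg14* (x axis) from the mean of the mouse's own group of 3, both in log2 CPM, 1 point per mouse, circles for females and triangles for males, WT in blue. The point at the lower left, at -1.23 and -0.39, is female WT replicate 2.

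Over all 12 mice, genotype included, the genes whose log2 CPM followed *Ndn* most closely among 14387 genes with a mean of at least 1 CPM were *Gm5802* (r = 0.95), the gene with Entrez ID 100038688 (r = 0.89), which has no name in the tables used here, and *Prune1* (r = 0.83). *Gm5802* was followed by *Ndn* (r = 0.95), the same unnamed gene (r = 0.90) and *Snrpn* (r = 0.89). *Ipw* was followed by *Nell1* (r = 0.94), *Slc17a6* (r = 0.88) and *A230057D06Rik* (r = 0.87). *Snrpn* was followed by *Ackr1* (r = 0.89), *Tmem229b* (r = 0.89) and *Ccdc74a* (r = 0.89), with *Gm5802* in place 4. These values describe 12 libraries that fall into 2 genotypes, and a difference between the genotypes enters each of them.

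The rest of the region was then examined around the cluster. Of 22 genes listed as neighbours, 21 were tested, and these lie on both sides of the cluster. They run from *Tubgcp5*, whose midpoint lies 6.54 Mb before the start of *Ndn*, to *Tarsl2*, 3.32 Mb after it. The gene not tested was *Snurf*, which lies inside the cluster over *Snrpn* and was counted 0 times. For genotype, 0 of the 21 had an adjusted p under 0.05 with edgeR, DESeq2 or limma-voom, and 1 had an unadjusted p under 0.05, against 3.26% of all genes tested. Their median log2 fold change was -0.02, with 6 values above and 15 below 0, beside a median of -8e-04 over all genes tested. The smallest p belonged to *Mphosph10*, a nucleolar protein of ribosome assembly (19.3 ± 2.56 CPM in WT, 22.1 ± 1.05 in *Nell-1+/6R*; log2 fold change 0.20, SE 0.0847, edgeR adjusted p = 0.9995), and *Gabra5*, a GABA-A receptor subunit (log2 fold change -0.14, SE 0.0672, edgeR adjusted p = 0.9995). *Atp10a*, the first neighbour beyond *Ube3a*, had means of 12.3 ± 1.28 CPM (WT) and 12.3 ± 1.82 CPM (*Nell-1+/6R*).

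Inside the cluster the table holds 19 further genes, *Snurf* among them, listed by position after the counts had been seen. Most are small RNA or noncoding genes at or near 0 counts, and 4 passed the filter, of which 0 had an adjusted p under 0.05 with edgeR, DESeq2 or limma-voom and 3 an unadjusted one with edgeR, against 3.26% of all genes tested. *B230209E15Rik* (chr7:61529410-61615327), a noncoding RNA, ran from 28.9 through a median of 34.5 to 38.9 CPM in WT and from 15.0 through a median of 23.8 to 31.4 CPM in *Nell-1+/6R* mice, with some overlap (log2 fold change -0.62, SE 0.146, edgeR adjusted p = 0.800). *A230006K03Rik* (chr7:61010265-61311649) had a log2 fold change of -0.72 (SE 0.277) and *A330076H08Rik* (chr7:61943895-61982355) one of -0.69 (SE 0.213), edgeR adjusted p = 0.9995 for both. All these noncoding genes lie with *A230057D06Rik* between *Snrpn* and *Ndn*, and their fitted values were below 0 like that of *A230057D06Rik*. The pseudogene *Gm7367* had a fitted value of 0.34 (SE 0.205).

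**Figure D5:**
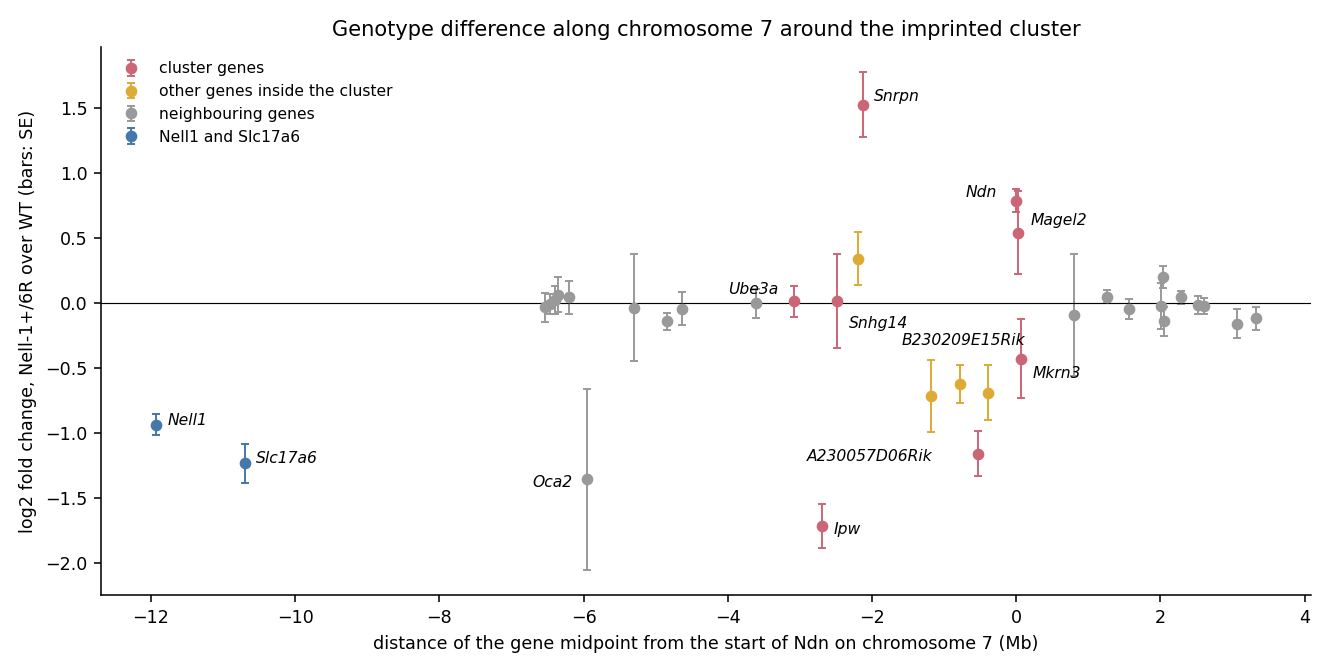
Log2 fold change, *Nell-1+/6R* over WT, with its SE (y axis) against the distance of the gene's midpoint from the start of *Ndn* (x axis, Mb) on chromosome 7, for genes of the cluster (red), other genes inside it (yellow), neighbours (grey) and *Nell1* with *Slc17a6* (blue). Among the genes of the cluster the values run from -1.71 (*Ipw*) to 1.53 (*Snrpn*), the neighbours lie near 0 apart from *Oca2*, which has an SE of 0.699, and *Nell1* and *Slc17a6*, farther off at the left, lie at -0.93 and -1.23.

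Promoters of *Ndn*, *Snrpn* and the other 7 genes of the cluster were compared as RefSeq gives them for GRCm38, *Gm5802* having no entry, from 250 bases before to 50 bases after the start. The palindrome CGCATGCG, which reads the same on both strands and forms the core of the motif of the factor NRF1, was noticed at *Ndn* and *Snrpn* after the sequences had been looked at. It is in all 4 promoters listed for *Snrpn*, in that of *Ndn* and in that of *Snhg14*, and in 615 of the 32851 promoters of the table (1.87%). The promoters of *Ube3a*, *Ipw*, *A230057D06Rik*, *Magel2*, *Mkrn3* and *Peg12* do not hold these letters in this window. The bases before the start are printed for the places where the palindrome, in capitals, lies upstream, at -63, -78 and -71 from 3 starts of *Snrpn* and at -23 from that of *Ndn*. At the fourth start of *Snrpn* it lies inside the transcript, at 37.
Snrpn and Snhg14, shared start (chr7:60450211-60450262, minus strand): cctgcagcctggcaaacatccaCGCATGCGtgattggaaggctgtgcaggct
Snrpn, start downstream (chr7:60140274-60140325, minus strand): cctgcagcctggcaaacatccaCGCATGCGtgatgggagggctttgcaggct
Snrpn, start further downstream (chr7:60048020-60048071, minus strand): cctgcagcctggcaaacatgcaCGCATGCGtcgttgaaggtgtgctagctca
Ndn (chr7:62348232-62348276, plus strand): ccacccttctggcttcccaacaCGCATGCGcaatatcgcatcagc

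The first and second stretches printed for *Snrpn* are close copies of each other, and the third is like them mainly up to the palindrome. How far *Ndn* resembles them outside the palindrome was not measured. *Snhg14* and *Snrpn* share the first of the promoters printed, and counts per gene do not tell which start of *Snrpn* was used. Any link of the palindrome to the genotype differences was not tested. CpG pairs also differed in number between the starts. The 300 bases held 29 of them at *Ube3a*, 15 at *Mkrn3*, 12 at *Peg12*, 11 at *Ndn* and 10 at *Magel2*. They held 2, 3, 4 and 7 at the 4 starts of *Snrpn*, the first of them shared with *Snhg14*, 1 at *Ipw* and 0 at *A230057D06Rik*, against a median of 7 over all promoters. Whether the number of CpG pairs has to do with the genotype differences was not tested.

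Genes that work with the cluster's products were tested from fixed lists. Of 18 genes of the Sm core and the snRNPs, the partners of SmN, 0 had an adjusted p under 0.05 for genotype with edgeR, DESeq2 or limma-voom, 1 had an unadjusted p under 0.05 (3.26% of all genes tested had one), and 12 were higher and 6 lower, with a median log2 fold change of 0.02. *Snrpb*, whose product SmN replaces, had means of 55.7 ± 3.63 (WT) and 56.8 ± 5.13 CPM (*Nell-1+/6R*; SD, n = 6 each; log2 fold change 0.03, SE 0.0686). The smallest p were those of *Snrpa1*, a U2 snRNP protein (17.0 ± 1.10 against 14.4 ± 1.09 CPM; log2 fold change -0.24, SE 0.0749, edgeR adjusted p = 0.9995), and *Ddx20*, a helicase of snRNP assembly (log2 fold change -0.12, SE 0.078, edgeR adjusted p = 0.9995).

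Of 22 genes of necdin, MAGE and Ube3a partners, 0 had an adjusted p under 0.05 with edgeR, DESeq2 or limma-voom and 0 an unadjusted one in edgeR (0.0390% and 3.26% of all genes tested), with 12 higher, 10 lower and a median of 0.02. *Ngfr*, the neurotrophin receptor that necdin binds, had the smallest p (3.55 ± 0.829 CPM in WT, 2.88 ± 0.422 in *Nell-1+/6R*; log2 fold change -0.30, SE 0.182, edgeR adjusted p = 0.9995). *Nucb2*, which encodes nesfatin and whose product necdin also binds, followed at 0.13 (SE 0.0955). *Maged1*, the abundant MAGE gene of this tissue, was at 622.8 ± 28.7 and 615.0 ± 19.9 CPM, and *Arc*, a synaptic gene linked to Ube3a, at 338.4 ± 51.4 and 331.5 ± 48.3 CPM (SD, n = 6 each).

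Of 14 genes that set or keep imprints, 0 had an adjusted p under 0.05 with edgeR, DESeq2 or limma-voom and 0 an unadjusted one in edgeR (again 0.0390% and 3.26% of all genes), with 5 higher, 9 lower and a median of -0.02. *Arid4a* (log2 fold change -0.09, SE 0.0771) and *Dnmt3a* (-0.08, SE 0.067), a chromatin protein and a DNA methyltransferase, had the smallest p. *Zfp57*, the zinc finger protein that guards imprints, had means of 5.59 ± 1.15 (WT) and 5.97 ± 0.938 CPM (*Nell-1+/6R*; SD, n = 6 each).

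Other tissue in the samples was followed by its markers. Hypothalamus, where *Ndn* and *Magel2* are strongly expressed, left little trace, with its 9 markers at a summed 2.03 to 4.87 CPM in WT and 2.20 to 2.68 CPM in *Nell-1+/6R* mice. The 8 thalamus and habenula markers summed to 88.4 to 119.6 CPM in WT and 74.1 to 91.4 CPM in *Nell-1+/6R* mice, and 5 of the 7 tested had a fitted value below 0. Among them *Slc17a6*, which also lies on chromosome 7, fell (17.8 ± 2.69 to 7.60 ± 1.72 CPM, log2 fold change -1.23, edgeR adjusted p = 0.0035). Leptomeningeal markers had fitted values below 0 in all 7, their median being -0.93 on the log2 scale, and 5 of the 7 had an unadjusted p under 0.05, against 3.26% of all genes tested, but 0 an adjusted one with edgeR, DESeq2 or limma-voom. They were at a summed 109.0 to 359.6 CPM in WT and 64.5 to 368.9 CPM in *Nell-1+/6R* mice. Choroid plexus markers, with fitted values below 0 in all 6, ranged from 49.9 to 4571 CPM in WT and from 39.4 to 5077 CPM in *Nell-1+/6R* mice. The 7 markers of GABAergic neurons and the 6 of neurons at large all had fitted values above 0, at 535 to 602 against 551 to 663 CPM and at 3839 to 4921 against 3620 to 5313 CPM. An unadjusted p under 0.05 was found for 2 of these 7 and 1 of these 6, and for 2 of the 7 markers of hippocampal principal neurons, of which 5 had fitted values above 0. The 5 oligodendrocyte and the 5 astrocyte markers all had fitted values below 0, with medians of -0.11 and -0.02, at 3567 to 5902 against 2796 to 6164 CPM and at 2888 to 3848 against 2616 to 3925 CPM. No marker of any list was at 0 in every mouse, all summed levels overlapped between the genotypes, and their part in the differences of the 10 genes was not tested.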

How the data were processed

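Total RNA of mouse hippocampus was sequenced on an Illumina HiSeq instrument with 50-base reads. The authors aligned the reads to mm10 with HISAT2 (2.1.0) and counted them per Entrez gene with featureCounts (2.0.1 in the submitters' processing notes; the version in the study's methods differs). The deposited values are raw counts of 27179 genes without normalization, and replicates were not pooled; 25275 were named through RefSeq. The sources used give neither the strand nor the multi-mapping setting.

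Counts were scaled with TMM factors and tested with edgeR 4.0.16 (quasi-likelihood, R 4.3.3) on sex and genotype after a filter of CPM at least 0.2 in at least 2 mice (17937 genes). P-values were adjusted by the Benjamini-Hochberg method over all genes, and the interaction was taken from a 4-group model. CPM use TMM-scaled totals. The mice are separate animals, 6 per genotype, grouped by the genotype field, since titles of WT samples also carry the heterozygote abbreviation. At 10834905 to 16016317 counts per mouse, a CPM of 0.2 is 2 or 3 counts. The fit was tested on simulated data. Correlations used log2 CPM (prior count 2) and 100000 permutations, two-sided.

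Members and lists were chosen with earlier results of these data known. Named were all members; in each list the genes past an adjusted p of 0.05 or else the 2 with the smallest p; the 3 genes most alike to *Ndn*, *Snrpn*, *Ipw* and *Gm5802*; and *Nell1*. *Snrpb*, *Atp10a*, *Maged1*, *Arc*, *Zfp57*, *Oca2* and the genes inside the cluster were named after their values were seen. Sequences came from GENCODE M21 transcripts and from RefSeq promoters of GRCm38, in which 9 of the 10 genes were found; no genome was used. Alternatives were DESeq2 1.42.0 and its size factors, limma-voom (limma 3.58.1), other filters, genotype alone, a replicate block and each mouse left out. Python 3.11.15, pandas 2.3.3, numpy 2.4.6, scipy 1.17.1, Biopython 1.88 and matplotlib 3.10.9 were used.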

Additional observations from a re-analysis of the deposited data

Results flagged for a closer look

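*Magel2* was at 4.55 CPM in male *Nell-1+/6R* replicate 2, far above the rest of its genotype, and the genotype difference shrinks without this mouse as given above. Among the summed markers, a single mouse lay far from its genotype in 4 cases. GABAergic neuron markers were lowest in male WT replicate 3 at 535.2 CPM, and thalamus and habenula markers were highest in the same mouse at 119.6 CPM. It was also the mouse lowest in *Ndn*. Choroid plexus markers were highest among *Nell-1+/6R* mice in female replicate 1 at 5077 CPM, and hypothalamus markers highest among WT mice in female replicate 2 at 4.865 CPM, the mouse on which the relation of *Ube3a* and *Snhg14* leaned. In all, 40 groups of 6 values were examined, and chance flags about 1 in 20.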

How the results depend on the processing

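With 7 other settings and with each of the 12 mice left out, 4 to 5 and 3 to 4 of the genes described, *Gm5802* included, had an adjusted p under 0.05 for genotype. Since the genes were picked on this difference, these counts do not bear on how well it holds. The counts of 0 for sex, interaction and the 4 lists were 0 in every setting run. With a replicate block the count for genotype was 4 and those for the interaction and the lists 0. Mice of the same number did not pair (correlations of their deviations from -0.39 to 0.38, and 2 of 6 WT mice were most like the *Nell-1+/6R* mouse of their number and sex). Leaving out single mice gave 0 to 1 correlated pairs within groups, 0 in 7 of the 12 sets. *Ube3a* and *Snhg14* then had r of 0.45 to 0.86. Of the other 5 pairs, *Snrpn* and *Snhg14* stayed below 0 (r from -0.56 to -0.22) and 4 changed sign in some such sets, with r from -0.0028 to 0.49 for *Snrpn* and *Gm5802*, -0.0444 to 0.30 for *Ipw* and *Snhg14*, -0.40 to 0.21 for *Ndn* and *Magel2*, and -0.22 to 0.31 for *Ipw* and *A230057D06Rik*, the last at -0.0156 with genotype means only removed. The causes were not tested. Depth limits genes with few counts, such as *Peg12* with 0 to 3 per mouse and *Mkrn3* with 3 to 14.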
